A study of Mus musculus with 9 samples.

Results

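The chemokines and their receptors were followed across liver tumor, tumor-bearing liver and normal liver of the mouse. Members were taken by symbol from the array's annotation: the numbered Ccl, Cxcl, Ccr and Cxcr genes, Cx3cl1, Cx3cr1, Xcl1 and Xcr1, together with the atypical receptor Ackr3. This gave 49 genes, 32 ligands and 17 receptors, of the 18194 genes named on the array. Expression was measured with 9 arrays, 1 for each of 9 tissue pieces. The tumor group was 3 pieces of 1 hepatocellular carcinoma with severe steatosis from a SART1+/- mouse, which carries 1 altered copy of Sart1. The adjacent liver group was, per the labels, 3 pieces of the neighbouring liver of the same mouse, having cellular alteration and severe steatosis. The wild-type liver group was 3 pieces of 1 normal liver with mild steatosis. Both animals were untreated male C57Bl6 mice, 12 months old and on regular chow, and SART1+/- males developed such tumors from 10 months of age, per the labels. Genotype, steatosis and the individual mouse therefore cannot be told apart, and p-values measure the spread between pieces of 1 organ.

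Chemokines are small secreted proteins that guide migrating leukocytes by binding receptors coupled to G proteins. They are classed as CXC, CC, CX3C and XC by the spacing of their first cysteines, and several ligands usually share a receptor. In the liver, hepatocytes, Kupffer cells, sinusoidal endothelium, stellate cells and bile duct cells can all secrete them, while most of the receptors sit on the leukocytes that arrive.

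Levels are log2 values, so a difference of 1 is 2-fold. The array medians lay between 5.76 and 5.81. Pieces of 1 group correlated at 0.996 or more across probe sets, tumor and adjacent-labelled pieces at 0.983 to 0.984, and tumor and wild-type pieces at 0.959 to 0.962. Sart1 itself averaged 7.74 ± 0.03 in tumor, 8.37 ± 0.03 in adjacent-labelled liver and 8.34 ± 0.02 in wild-type liver (SD, n = 3 each). Tumor was below wild-type liver by a log2 difference of -0.60 (adjusted p = 2.61e-06), whereas adjacent-labelled and wild-type liver differed by 0.03 (adjusted p = 0.678). Because the transcript did not separate the adjacent pieces from wild-type liver, they are called adjacent-labelled here. The hepatocyte markers, such as the genes of albumin and transthyretin, had a mean level of 14.04 to 14.06 in tumor, 14.03 to 14.05 in adjacent-labelled liver and 14.05 to 14.06 in wild-type liver, so all pieces carried hepatocyte RNA. The 3' minus 5' difference of the Actb control probe sets, a sign of RNA integrity, was 0.59 ± 0.09 in tumor, 0.85 ± 0.05 in adjacent-labelled liver and 0.86 ± 0.02 in wild-type liver. The same difference for Gapdh ordered the groups otherwise, at 0.21 ± 0.01, 0.16 ± 0.02 and 0.27 ± 0.02 in tumor, adjacent-labelled and wild-type liver. The part of either in the results was not tested.

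Piece 2 of the adjacent-labelled liver stood apart from its group for this family. It held the highest of the 3 adjacent-labelled values for 34 of 49 members, or 69.4%, against 34.4% of all 18194 genes. Ackr3, Ccl8, Cx3cr1 and Cxcr4 exceeded the mean of the other pieces there by at least 1, as did 0.126% of the 18194 genes. The Kupffer cell markers had a mean level of 8.12 in that piece, against 8.79 and 8.80 in its neighbours. Values without it are given for those 4 members and for Cxcr6.

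Of the 49 members, 36 were bright enough to be tested, and 29 of those lay above the detection threshold on all 9 arrays. That threshold was the 40th percentile of each array, between 5.16 and 5.26, exceeded on at least 3 arrays. Cxcl2, Cxcl3, Cxcl5, Ccl3, Ccr1 and Cxcr4 exceeded it on none of the wild-type arrays, so they entered the test only because they were brighter elsewhere. Their differences from wild-type liver have no exact size. Calls needed a log2 difference of 1 or more in either direction together with an adjusted p below 0.05. In tumor against wild-type liver, 14 members were called higher, where 8.41% of the 13888 genes tested were, and 1 was called lower, where 4.59% were. In adjacent-labelled against wild-type liver, 13 members were called higher, where 8.29% of genes were, and 0 lower, where 3.22% were. Between tumor and adjacent-labelled liver, 1 member was called higher in tumor and 0 lower, where 2.10% and 2.94% of genes were called. By adjusted p alone, 19 members were higher and 7 lower in tumor against wild-type liver, where 33.2% and 30.2% of genes were. For adjacent-labelled against wild-type liver these counts were 18 and 7, where 34.0% and 28.9% of genes passed. For tumor against adjacent-labelled liver they were 4 and 7, where 20.1% and 25.1% did. By that rule, both lower counts against wild-type liver, and both counts between tumor and adjacent-labelled liver, were under the background share.

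Without the brightness filter, all 49 members had a median log2 difference of 0.06 in tumor and 0.16 in adjacent-labelled liver, each against wild-type liver, beside -0.06 for all genes in both. At the same call rule 14 members were called higher in each of those comparisons, where 6.47% and 6.40% of all genes were, and 1 and 0 lower, where 3.54% and 2.50% were. Tumor against adjacent-labelled liver then had 1 member higher and 1 lower, where 1.64% and 2.29% of genes were. The increases were thus carried by a subset of the family. The ligands Cxcl2, Cxcl5, Cxcl9, Cxcl10, Cxcl14, Cx3cl1, Ccl5, Ccl6 and Ccl8 and the receptors Ccr1, Cxcr4 and Cx3cr1 were called higher in both, 12 members in all. Of these, Cxcl2, Cxcl5, Ccr1 and Cxcr4 entered the test only through the tissues where they were brighter. These 2 comparisons share the wild-type pieces, so they are not independent. In tissue RNA, more cells of a type and more RNA per cell cannot be told apart.

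**Figure D1:**
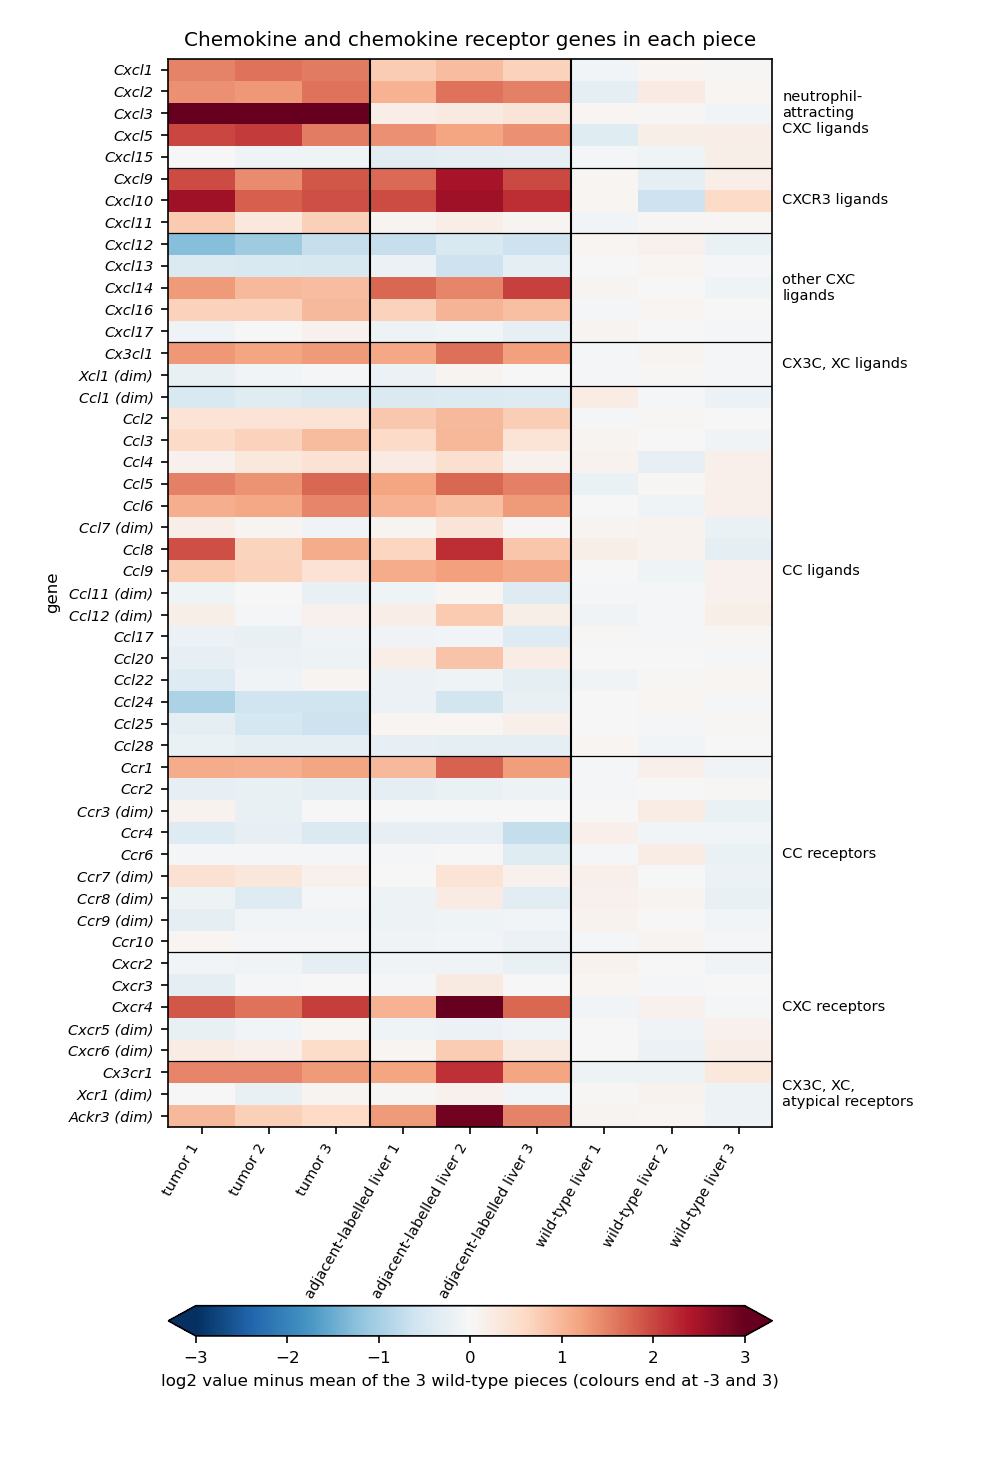
Log2 level of each of the 49 members (rows, grouped by role) in each of the 9 pieces (columns), minus the mean of the 3 wild-type pieces; red is higher and blue lower. Genes marked dim were not tested. Cxcl3 is red in the 3 tumor pieces alone, and Cxcr4 and Ackr3 are darkest in adjacent-labelled piece 2.

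The neutrophil-attracting ligands Cxcl1, Cxcl2, Cxcl3 and Cxcl5, which act on the receptor Cxcr2, were all higher in tumor than in wild-type liver, 4 of the 5 genes in this group. On the brightest probe set of each gene, Cxcl2 and Cxcl5 were called in adjacent-labelled liver. Cxcl15, a ligand best known from lung, was at 5.57 ± 0.06 in tumor, 5.37 ± 0.05 in adjacent-labelled liver and 5.65 ± 0.16 in wild-type liver, and was called in neither comparison. Their receptor Cxcr2 was not called either.

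Cxcl3 separated tumor from both other tissues. It read 8.25, 7.84 and 7.21 in the tumor pieces, 2.89, 2.96 and 3.06 in the adjacent-labelled pieces, and 2.74, 2.72 and 2.59 in the wild-type pieces. The tumor pieces were far above the other 6, which sat near the bottom of the scale, where a level cannot be told from background. The log2 difference was 5.09 in tumor against wild-type liver (SE 0.20, adjusted p = 6.91e-09) and 4.79 in tumor against adjacent-labelled liver (SE 0.20, 95% interval 4.35 to 5.24, adjusted p = 6.41e-08). Adjacent-labelled and wild-type liver differed by 0.29 (adjusted p = 0.221). Because the dim level may be background, neither difference should be read as an exact fold.

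Cxcl1, an early signal for neutrophils, read 10.86, 11.01 and 10.92 in tumor, 10.12, 10.29 and 10.07 in adjacent-labelled liver, and 9.28, 9.43 and 9.41 in wild-type liver. The 3 groups did not overlap, with tumor highest. Tumor exceeded wild-type liver by 1.56 (SE 0.08, adjusted p = 3.47e-08) and adjacent-labelled liver exceeded it by 0.79 (adjusted p = 6.92e-06), short of the minimum difference of 1. These values are of its brightest probe set. Other probe sets of Cxcl1 passed that minimum in adjacent-labelled liver, at 2.63 and 2.15, as described with the probe sets. Cxcl2, which macrophages release early in inflammation, read 5.90, 5.83 and 6.16 in tumor, 5.58, 6.16 and 6.05 in adjacent-labelled liver, and 4.24, 4.77 and 4.58 in wild-type liver. Tumor and adjacent-labelled pieces overlapped and both lay above every wild-type piece, at differences of 1.43 (adjusted p = 2.57e-05) and 1.40 (adjusted p = 3.43e-05). Cxcl5, made largely by epithelial cells, read 6.44, 6.52 and 5.96 in tumor, 5.80, 5.61 and 5.80 in adjacent-labelled liver, and 4.06, 4.60 and 4.64 in wild-type liver. All tumor pieces lay above all adjacent-labelled pieces, and these above all wild-type pieces. Its differences from wild-type liver were 1.88 in tumor (adjusted p = 4.22e-06) and 1.31 in adjacent-labelled liver (adjusted p = 7.29e-05). All wild-type values of Cxcl2 and Cxcl5 lay below the detection threshold, so the differences of both have no exact size.

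Cxcl3, Cxcl1 and Cxcl2 lie close together on chromosome 5, with Cxcl5 and Cxcl15, and their promoters are printed because 3 genes with unequal patterns shared 1 sequence stretch. Each is the 250 bases before the start in the RefSeq sequence of GRCm38.p6, read 5' to 3' on the gene's strand, and capitals mark matches, on either strand, to a form of the NF-kB site spelled GGGA, any pair of bases, T, any base and CC:
Cxcl3 (chr5:90785851-90786100, plus strand): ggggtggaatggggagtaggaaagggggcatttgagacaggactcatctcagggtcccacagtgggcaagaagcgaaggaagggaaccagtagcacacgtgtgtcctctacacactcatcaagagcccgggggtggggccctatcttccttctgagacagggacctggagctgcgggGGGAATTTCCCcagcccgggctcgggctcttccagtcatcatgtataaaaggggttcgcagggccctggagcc
Cxcl1 (chr5:90890995-90891244, plus strand): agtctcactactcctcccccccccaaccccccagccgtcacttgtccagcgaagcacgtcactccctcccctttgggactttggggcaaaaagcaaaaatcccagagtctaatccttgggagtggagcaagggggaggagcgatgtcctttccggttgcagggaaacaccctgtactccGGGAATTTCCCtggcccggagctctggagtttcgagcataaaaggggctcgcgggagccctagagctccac
Cxcl2 (chr5:90903649-90903898, plus strand): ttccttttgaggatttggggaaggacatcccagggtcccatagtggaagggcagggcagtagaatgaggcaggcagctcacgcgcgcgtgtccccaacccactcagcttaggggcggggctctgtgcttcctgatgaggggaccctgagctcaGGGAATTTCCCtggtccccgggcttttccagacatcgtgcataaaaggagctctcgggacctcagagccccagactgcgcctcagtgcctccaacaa
In all 3 the marked run holds a pair of overlapping matches, GGGAATTTCC and, on the other strand, GGAATTTCCC read on the gene's strand. The first match began 73 bases before the start in Cxcl3, 71 in Cxcl1 and 97 in Cxcl2. Of 32851 mouse promoters of that length, 3.33% held the motif, and 7 of the 36 members with a promoter entry did. Beside these 3 genes and Cxcl10 they were Ccl1 and Ccr3, too dim to test, and Ccr6, not called. Called members without a match were Cxcl9, Cxcl12, Cxcl14, Cx3cl1, Ccl6, Ccl8, Ccl9, Ccr1, Cxcr4 and Cx3cr1. Cxcl5 and Ccl5, also called, had no promoter entry. The same match in Cxcl3 and Cxcl2 thus stood beside different levels in adjacent-labelled liver, where Cxcl2 was called and Cxcl3 was not. A match is a description of the letters and not a measured binding site.

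**Figure D2:**
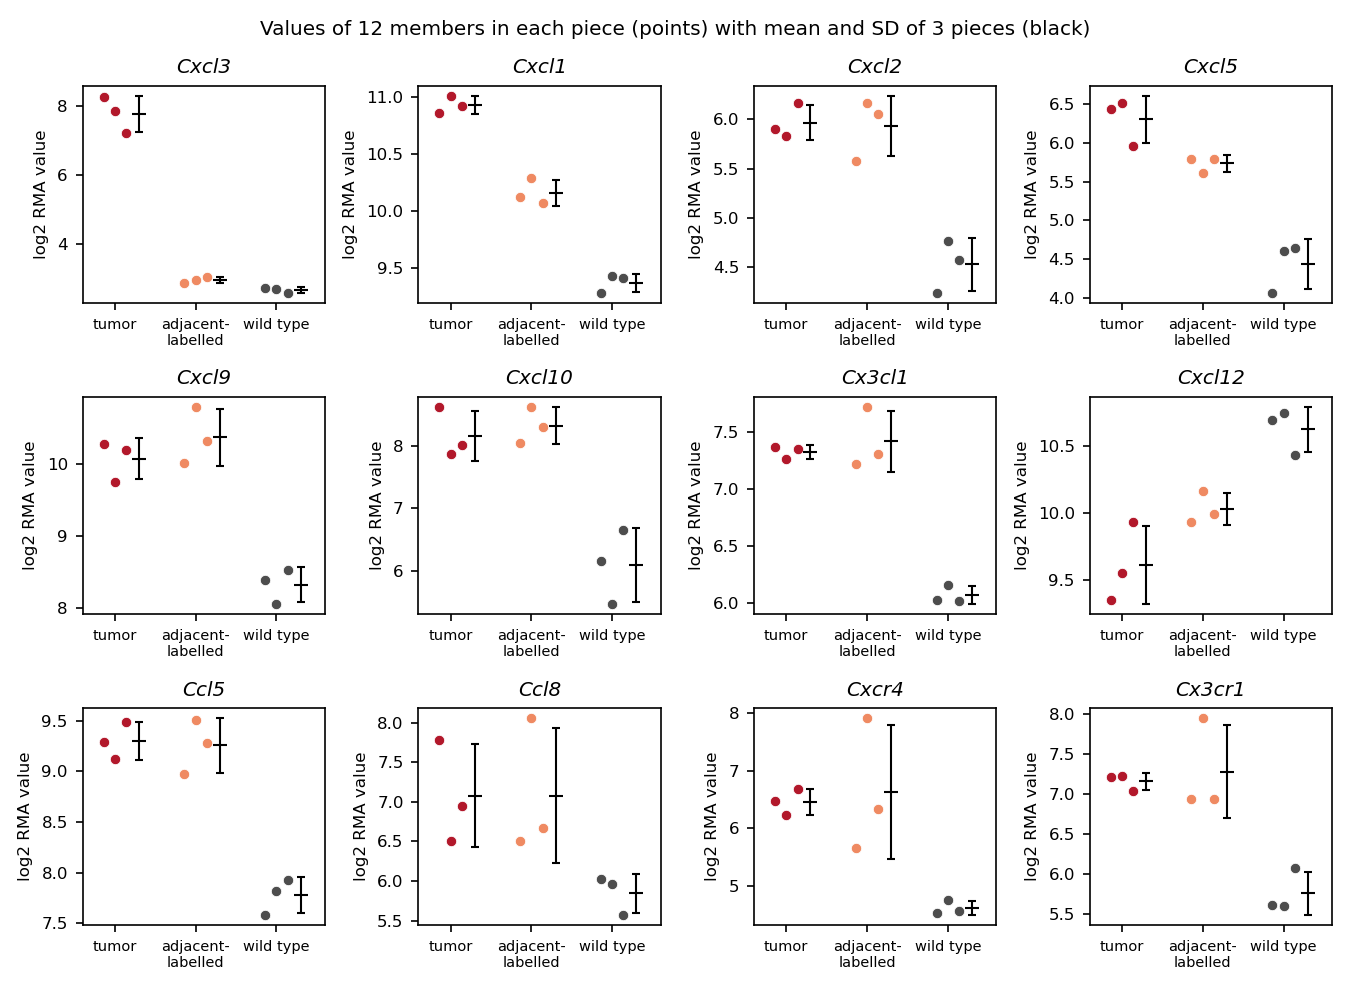
Log2 level by piece of 12 members, 1 per panel, with tumor at the left, adjacent-labelled liver in the middle and wild-type liver at the right; points are pieces 1 to 3 from left to right, and black bars the mean and SD of 3 pieces. Cxcl3 is high in tumor alone, at 7.21 to 8.25, while adjacent-labelled piece 2 lies well above its neighbours for Cxcr4, at 7.92.

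Cxcl9 and Cxcl10, which interferon-gamma induces and which draw activated T cells and NK cells through Cxcr3, were higher in tumor and in adjacent-labelled liver than in wild-type liver. Cxcl9 read 10.29, 9.76 and 10.20 in tumor, 10.02, 10.80 and 10.32 in adjacent-labelled liver, and 8.40, 8.06 and 8.53 in wild-type liver. Every tumor and adjacent-labelled piece lay above every wild-type piece, and these 2 groups overlapped each other. The differences from wild-type liver were 1.75 in tumor (SE 0.20, adjusted p = 2.53e-05) and 2.05 in adjacent-labelled liver (SE 0.20, adjusted p = 8.62e-06). Cxcl10 read 8.62, 7.87 and 8.01 in tumor, 8.05, 8.63 and 8.30 in adjacent-labelled liver, and 6.15, 5.46 and 6.65 in wild-type liver. The order of the groups was the same as for Cxcl9, with a wider spread in wild-type liver. Its differences were 2.08 in tumor (SE 0.28, adjusted p = 8.52e-05) and 2.25 in adjacent-labelled liver (SE 0.28, adjusted p = 5.29e-05).

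Cxcl11, the remaining ligand of Cxcr3, which C57BL/6 mice are known to carry in a form that makes no functional protein, differed from wild-type liver by 0.60 in tumor (adjusted p = 0.000773) and by 0.12 in adjacent-labelled liver (adjusted p = 0.378), and was not called. The receptor Cxcr3 read 6.27, 6.51 and 6.54 in tumor, 6.50, 6.83 and 6.54 in adjacent-labelled liver, and 6.61, 6.53 and 6.54 in wild-type liver. Its groups overlapped, and the 95% interval of the difference from wild-type liver was -0.34 to 0.10 in tumor and -0.16 to 0.29 in adjacent-labelled liver. T cells are among its main carriers, and 0 of 9 tested T cell markers were called in either comparison.

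Cxcl9 and Cxcl10 are also neighbours on chromosome 5. Their promoters are shown to set side by side the motif content of 2 genes called higher in both tissues. Capitals mark matches to the same NF-kB pattern or to a form of the interferon response element spelled GAAA, any pair of bases and GAAA, in the same kind of window as above:
Cxcl9 (chr5:92328080-92328329, minus strand): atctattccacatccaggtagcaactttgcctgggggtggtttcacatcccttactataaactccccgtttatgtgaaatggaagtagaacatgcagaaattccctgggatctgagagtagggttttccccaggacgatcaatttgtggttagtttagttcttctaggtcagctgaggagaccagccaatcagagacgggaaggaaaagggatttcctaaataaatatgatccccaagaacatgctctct
Cxcl10 (chr5:92348890-92349139, minus strand): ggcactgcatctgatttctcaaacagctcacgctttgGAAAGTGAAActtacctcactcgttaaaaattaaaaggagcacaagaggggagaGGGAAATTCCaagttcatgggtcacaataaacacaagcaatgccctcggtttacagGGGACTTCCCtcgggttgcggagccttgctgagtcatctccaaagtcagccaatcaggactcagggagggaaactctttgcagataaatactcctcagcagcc
Cxcl10 held GGGAAATTCC and GGGACTTCCC at 159 and 103 bases before the start and GAAAGTGAAA at 213, and Cxcl9 held no match to either motif in its window. The interferon motif occurred in 2.98% of all promoters and in 2 members, Cxcl10 and Cxcl14. TGANTCA, the AP-1 site, occurred in 6.75% of all promoters and in 4 of the 36 members.

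Among the other CXC ligands, Cxcl14 was higher and Cxcl12 was lower. Cxcl14, a ligand of epithelia that attracts monocytes and dendritic cells, read 7.03, 6.74 and 6.68 in tumor, 7.49, 7.22 and 7.80 in adjacent-labelled liver, and 5.85, 5.78 and 5.63 in wild-type liver. The 3 groups did not overlap, with adjacent-labelled liver highest. It exceeded wild-type liver by 1.06 in tumor (SE 0.14, adjusted p = 6.75e-05) and by 1.75 in adjacent-labelled liver (SE 0.14, adjusted p = 1.71e-06). The tumor call was lost without tumor piece 1, at 0.95, or without wild-type piece 3, at 0.998, both just under the minimum difference.

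Cxcl12 keeps leukocytes and progenitor cells in place through Cxcr4 and was the only member called lower. It read 9.35, 9.55 and 9.93 in tumor, 9.93, 10.16 and 9.99 in adjacent-labelled liver, and 10.69, 10.74 and 10.43 in wild-type liver. The tumor pieces lay below every wild-type piece, and the highest tumor piece was level with the lowest adjacent-labelled one. The difference was -1.01 in tumor (SE 0.14, adjusted p = 8.71e-05) and -0.59 in adjacent-labelled liver (adjusted p = 0.00347), the second under the minimum size. The tumor call was lost without tumor piece 1, at -0.88, tumor piece 2, at -0.98, wild-type piece 1, at -0.98, or wild-type piece 2, at -0.95.

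Cxcl16, a membrane-bound ligand of Cxcr6 that is shed from the cell surface, differed from wild-type liver by 0.78 in tumor (adjusted p = 4.99e-05) and by 0.86 in adjacent-labelled liver (adjusted p = 2.63e-05), and was not called. Cxcl13, which draws B cells through Cxcr5, differed by -0.45 in tumor and -0.35 in adjacent-labelled liver. Cxcl17, a ligand of mucosal tissues, differed by 0.01 and -0.16. Cxcr6 read 4.99, 4.92 and 5.32 in tumor, 4.82, 5.53 and 5.04 in adjacent-labelled liver, and 4.75, 4.59 and 4.98 in wild-type liver. Only 2 of these 9 Cxcr6 values lay above the detection threshold, so it was not tested, and its groups overlapped. Without the brightness filter, adjacent-labelled liver differed from wild-type liver by 0.36, or by 0.16 without adjacent-labelled piece 2, and was called in neither case.

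Cx3cl1 and its receptor Cx3cr1, carried by monocytes and NK cells, were higher in tumor and in adjacent-labelled liver on their brightest probe sets. The ligand, which stands on the surface of endothelial and epithelial cells as well as being shed, read 7.37, 7.26 and 7.35 in tumor, 7.22, 7.72 and 7.31 in adjacent-labelled liver, and 6.03, 6.16 and 6.02 in wild-type liver. It was 1.26 higher in tumor (SE 0.11, adjusted p = 3.56e-06) and 1.35 higher in adjacent-labelled liver (SE 0.11, adjusted p = 2.43e-06), with no overlap with wild-type liver. Both calls were lost with the mean of its probe sets, at 0.48 and 0.43. Cx3cr1 read 7.21, 7.22 and 7.03 in tumor, 6.94, 7.95 and 6.94 in adjacent-labelled liver, and 5.61, 5.59 and 6.07 in wild-type liver. Piece 2 of the adjacent-labelled liver was the highest of the 9, and the other pieces of that liver were close to the tumor pieces. Its differences were 1.40 in tumor (SE 0.24, adjusted p = 0.000453) and 1.52 in adjacent-labelled liver (SE 0.24, adjusted p = 0.000271), or 1.19 without adjacent-labelled piece 2 (adjusted p = 5.02e-05). With the mean of its probe sets the tumor call was lost, at 0.96. Xcl1 and its receptor Xcr1, which mark cross-talk between T or NK cells and dendritic cells, were too dim to test.

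Among the 17 CC ligands, Ccl5, Ccl6 and Ccl8 were called higher in tumor, and Ccl9 joined them in adjacent-labelled liver. Ccl5, which T cells, NK cells and macrophages release and which acts on Ccr1 among other receptors, read 9.29, 9.12 and 9.49 in tumor, 8.97, 9.51 and 9.28 in adjacent-labelled liver, and 7.58, 7.82 and 7.93 in wild-type liver. Every wild-type piece lay below all 6 others, which overlapped. The differences were 1.52 in tumor (SE 0.14, adjusted p = 5.14e-06) and 1.48 in adjacent-labelled liver (SE 0.14, adjusted p = 7.35e-06). Ccl6, a ligand of Ccr1 found in rodents, read 9.27, 9.35 and 9.64 in tumor, 9.22, 9.09 and 9.45 in adjacent-labelled liver, and 8.16, 8.04 and 8.34 in wild-type liver. It was higher by 1.24 in tumor (adjusted p = 6.66e-06) and by 1.07 in adjacent-labelled liver (adjusted p = 2.31e-05), the second being 0.97 without adjacent-labelled piece 3 and 0.999 with the mean of its probe sets, both just under the minimum difference.

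Ccl9, a related rodent ligand of Ccr1, was highest in adjacent-labelled liver. It read 11.46, 11.38 and 11.13 in tumor, 11.79, 11.91 and 11.82 in adjacent-labelled liver, and 10.69, 10.56 and 10.81 in wild-type liver, and the groups did not overlap. Adjacent-labelled liver exceeded wild-type liver by 1.15 (SE 0.09, adjusted p = 1.85e-06) and tumor did by 0.64 (adjusted p = 0.000146). Ccl8, a monocyte attractant, was the least even of the called ligands, at 7.78, 6.51 and 6.95 in tumor, 6.50, 8.06 and 6.67 in adjacent-labelled liver, and 6.02, 5.96 and 5.57 in wild-type liver. One tumor piece and 1 adjacent-labelled piece were high and the others were closer to wild-type liver. The differences were 1.23 in tumor (SE 0.40, adjusted p = 0.0203) and 1.23 in adjacent-labelled liver (adjusted p = 0.0206). Without adjacent-labelled piece 2 the second was 0.74 (adjusted p = 0.0565), and without tumor piece 1 the first was 0.88 (adjusted p = 0.0846). Leaving out wild-type piece 3 also ended both calls, at 1.09 each (adjusted p = 0.0649 in tumor and 0.0655 in adjacent-labelled liver).

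Ccl2, the main attractant of inflammatory monocytes through Ccr2, read 6.61 in each tumor piece, 7.01, 7.18 and 6.94 in adjacent-labelled liver, and 6.13, 6.23 and 6.22 in wild-type liver. The 3 groups did not overlap, with adjacent-labelled liver highest. Its differences from wild-type liver, 0.41 in tumor (adjusted p = 0.000395) and 0.85 in adjacent-labelled liver (adjusted p = 2.09e-06), were under the minimum size. Ccl3, a ligand of Ccr1 released by macrophages, differed by 0.74 in tumor (adjusted p = 0.00111) and 0.66 in adjacent-labelled liver (adjusted p = 0.00232). Ccl4, its close relative, differed by 0.29 and 0.28 (adjusted p = 0.0662 and 0.0728). None of these 3 ligands was called.

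None of the remaining CC ligands was called in any comparison. Ccl24, an eosinophil attractant acting on Ccr3, differed from wild-type liver by -0.72 in tumor (adjusted p = 0.000314) and -0.31 in adjacent-labelled liver. Ccl28, a mucosal ligand of Ccr10, differed by -0.25 and -0.27, and Ccl17 and Ccl22, the ligands of Ccr4, by -0.14 to -0.20 across both comparisons. Ccl20, a ligand of Ccr6, and Ccl25, a ligand of Ccr9, lay on opposite sides of wild-type liver in the 2 tissues, for Ccl25 on its brightest probe set only. For Ccl20 the difference in tumor was only -0.20 (adjusted p = 0.258). Ccl1, Ccl7, Ccl11 and Ccl12 were too dim to test.

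Of the 17 receptors, 9 were tested, and Ccr1, Cxcr4 and Cx3cr1 were called higher in both tissues. Ccr1, carried by monocytes and neutrophils, read 5.72, 5.70 and 5.78 in tumor, 5.57, 6.38 and 5.86 in adjacent-labelled liver, and 4.57, 4.76 and 4.50 in wild-type liver. No wild-type piece reached the detection threshold, and every other piece did. The differences were 1.12 in tumor (SE 0.16, adjusted p = 0.000146) and 1.33 in adjacent-labelled liver (SE 0.16, adjusted p = 4.67e-05).

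Cxcr4, the receptor of Cxcl12, read 6.47, 6.23 and 6.68 in tumor, 5.65, 7.92 and 6.34 in adjacent-labelled liver, and 4.52, 4.75 and 4.56 in wild-type liver. The tumor pieces were close together, the adjacent-labelled pieces spread over more than 2 log2 units, and no wild-type piece overlapped them. Every wild-type value lay below the detection threshold, so differences from that liver have no exact size. The differences were 1.85 in tumor (SE 0.43, adjusted p = 0.00358) and 2.03 in adjacent-labelled liver (SE 0.43, adjusted p = 0.00211). Without adjacent-labelled piece 2, the second was 1.38 (adjusted p = 0.000176). Receptor and ligand thus differed in opposite directions in both tissues, with Cxcl12 lower and Cxcr4 higher. For Cxcl12 the difference in adjacent-labelled liver, -0.59, was under the minimum size, and the tumor call was lost without some single pieces.

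Ackr3 is an atypical receptor that removes Cxcl12 without signalling through G proteins. It read 4.88, 4.61 and 4.50 in tumor, 5.17, 6.79 and 5.40 in adjacent-labelled liver, and 3.99, 3.96 and 3.76 in wild-type liver. The 3 groups did not overlap, but all tumor and wild-type values lay below the detection threshold, so it was not tested and its differences have no exact size. Without the brightness filter, Ackr3 was above wild-type liver by 1.88 in adjacent-labelled liver (adjusted p = 0.000522) and by 0.76 in tumor (adjusted p = 0.068). Without adjacent-labelled piece 2 these were 1.38 (adjusted p = 6.99e-06) and 0.76 (adjusted p = 0.000179). Tumor lay below adjacent-labelled liver by a difference of -1.12 (adjusted p = 0.0186), which was -0.62 without adjacent-labelled piece 2 and no longer past the minimum size.

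Ccr2 read 7.53, 7.54 and 7.47 in tumor, 7.48, 7.57 and 7.62 in adjacent-labelled liver, and 7.74, 7.76 and 7.81 in wild-type liver on its brightest probe set. These values lay below wild-type liver, by -0.26 in tumor (adjusted p = 0.00278) and -0.22 in adjacent-labelled liver (adjusted p = 0.00871). Other probe sets of Ccr2 read in the opposite direction, as described with the probe sets. Ccr4, carried by regulatory and helper T cells, differed by -0.35 in tumor and -0.40 in adjacent-labelled liver, and Ccr6, Ccr10, Cxcr2 and Cxcr3 differed by at most 0.17 in size from wild-type liver. Ccr3, Ccr7, Ccr8, Ccr9, Cxcr5 and Xcr1 were too dim to test.

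Tumor and adjacent-labelled liver, from 1 animal per the labels, had fewer members called between them. Cxcl3 alone was called. Cxcl1 was higher in tumor by 0.77 (95% interval 0.60 to 0.94, adjusted p = 1.71e-05) and Cxcl5 by 0.57 (0.19 to 0.95, adjusted p = 0.0202). Cxcl14 was lower by -0.69 (-0.999 to -0.378, adjusted p = 0.00222), Ccl9 by -0.52 (-0.72 to -0.31, adjusted p = 0.00107) and Ccl2 by -0.43 (-0.59 to -0.28, adjusted p = 0.0005), all within 2-fold. For Cxcl9, Cxcl10, Ccl5 and Cx3cl1 the intervals ran from -0.75 to 0.15, -0.79 to 0.46, -0.28 to 0.36 and -0.34 to 0.16. These intervals leave room for differences of up to about 1 in size for Cxcl10, so equal levels are not shown.

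**Figure D3:**
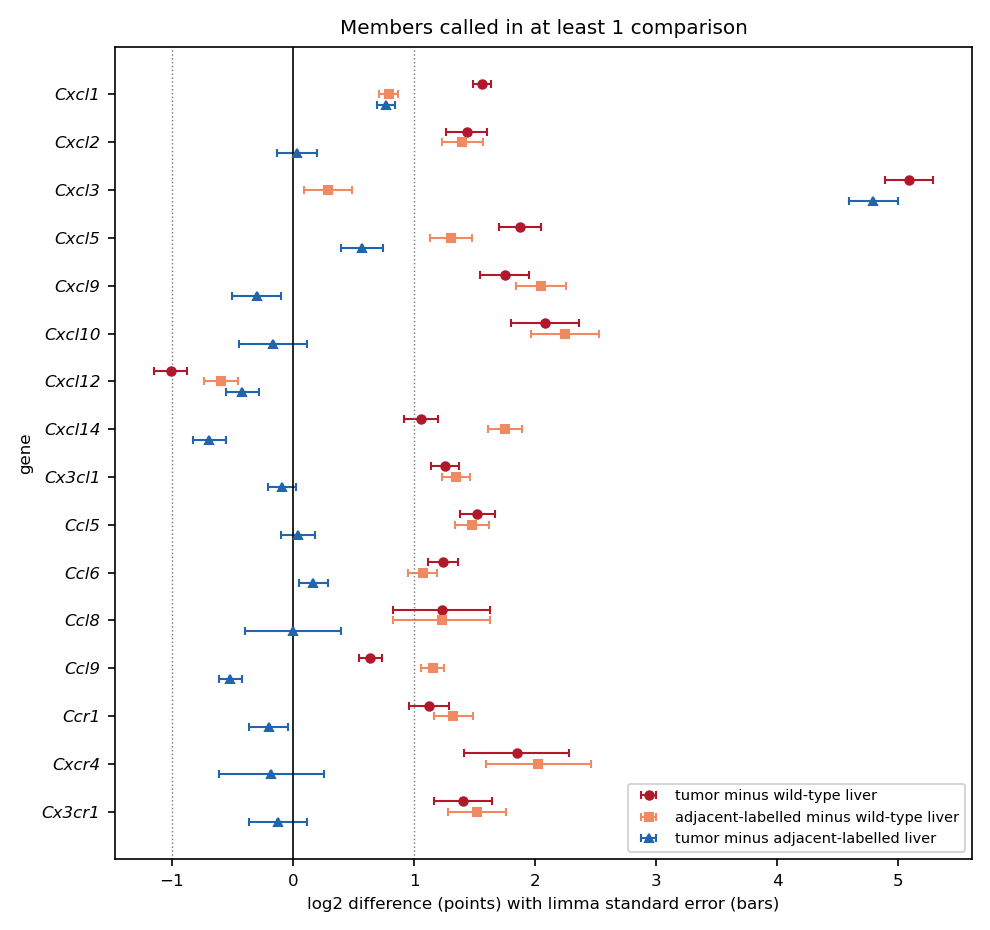
Log2 difference, with limma's standard error, of each member called in at least 1 comparison, for tumor minus wild-type liver, adjacent-labelled minus wild-type liver and tumor minus adjacent-labelled liver; the dotted lines mark a difference of 1 in size. Cxcl3 lies at 5.09 and 4.79 against wild-type and adjacent-labelled liver, and at 0.29 for adjacent-labelled against wild-type liver.

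Several members have more than 1 probe set, and the 77 member probe sets were not in step for all of them. The brightest Cxcl1 probe set gave differences from wild-type liver of 1.56 in tumor and 0.79 in adjacent-labelled liver, whereas the other 2 gave 3.71 and 2.63, and 3.08 and 2.15. All 3 were higher in both tissues, so the direction of Cxcl1 did not depend on the probe set but its size did. One of them was also called between tumor and adjacent-labelled liver, at 1.07. The brightest Ccr2 probe set gave -0.26 and -0.22, against 1.21 and 1.31, 1.14 and 1.40, and 0.24 and 0.39 for its other 3. Ccr2 therefore has no settled direction on these arrays.

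Cxcl14 was higher by 1.06 in tumor and 1.75 in adjacent-labelled liver on its brightest probe set and by 2.95 and 3.47 on the other. Cxcl16 passed the minimum difference on its second probe set, at 1.53 in tumor and 1.56 in adjacent-labelled liver. The other Cxcl12 probe sets gave -1.21 and -1.03, and -0.60 and -0.55, so all 3 were lower in both tissues. The other 3 Cx3cl1 probe sets gave 0.58 and 0.35, 0.14 and 0.03, and -0.07 and 0.002, and the second Ccr1 probe set 0.14 and 0.04, though all but the first of these were dim. With the mean of its probe sets, Ccr1 was too dim to test. The second Ccl25 probe set, above the threshold on all 9 arrays, lay below wild-type liver in both tissues, at -0.46 and -0.18, whereas the brightest gave -0.48 and 0.09. Over all 45101 probe sets at the same call rule, 22 member probe sets were called higher in tumor, where 4.71% of all probe sets were, and 22 in adjacent-labelled liver, where 4.51% were. Lower calls numbered 2 and 1, where 2.62% and 1.99% of probe sets were called. Between tumor and adjacent-labelled liver, 2 member probe sets were higher and 1 lower, where 1.39% and 1.53% were.

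**Figure D4:**
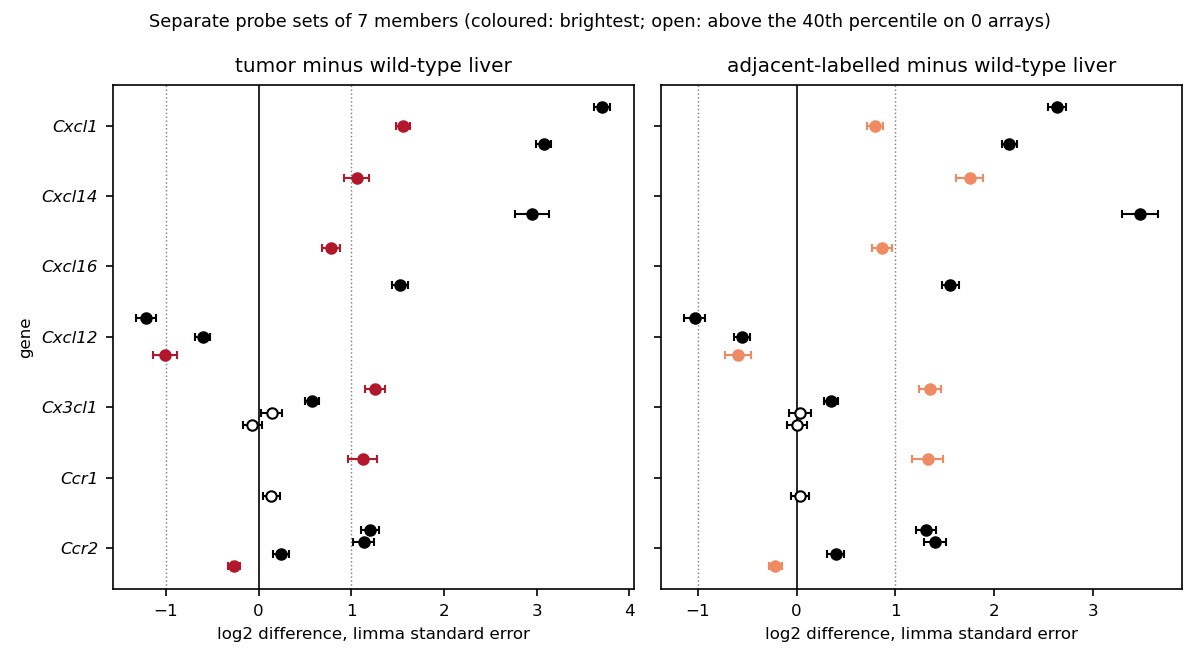
Log2 difference from wild-type liver on each probe set of 7 members with several, with limma's standard error, for tumor (left) and adjacent-labelled liver (right); the coloured mark is the brightest probe set, and open marks were above the detection threshold on 0 arrays. Ccr2 falls on both sides of 0, while all Cxcl1 probe sets are positive and all Cxcl12 probe sets negative.

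Genes around the family were read from lists on its relatives, on induction, on signalling and on clearance. Their counts stand beside the 8.41% higher and 4.59% lower of all genes tested in tumor, and 8.29% and 3.22% in adjacent-labelled liver, and their medians, over all genes of a list on the array, beside -0.06 for all genes in both. Of 14 tested NF-kB components and targets, a route by which inflammatory signals switch on chemokine genes, 6 were called higher in tumor and 8 in adjacent-labelled liver, with 0 lower and list medians of 0.79 and 0.9998. Icam1, which holds leukocytes to endothelium, was higher by 2.48 in tumor and 2.44 in adjacent-labelled liver, and Relb, an NF-kB subunit, by 1.55 and 2.15. Nfkbia, named after its values were seen, went the other way, under the minimum size. It differed by -0.46 in tumor (adjusted p = 0.000188) and -0.37 in adjacent-labelled liver (adjusted p = 0.000917). Of 16 interferon signalling genes, 5 were called higher in each, with 0 lower and medians of 0.66 and 0.44, among them the transcription factor Irf8, higher by 1.26 in tumor and 1.17 in adjacent-labelled liver. Of 14 cytokine genes that induce chemokines, 3 were higher in each and 0 lower, namely Ltb, by 3.35 and 2.51, Il33, by 1.84 and 2.17, and Tgfb1, by 1.39 and 1.20, while the medians were -0.02 and -0.03. Il33, like Ppbp, Mmp12, Klrd1, Itgam and Camp of the lists that follow, exceeded the detection threshold on none of the wild-type arrays, so these were tested only through the other tissues and their differences have no exact size. Il6, Ifng and Il4, named after their values were seen, exceeded the detection threshold on no array.

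The 12 tested relatives outside the symbol rule included Ppbp, a platelet ligand of Cxcr2, higher by 1.68 in tumor, and Cmtm7, higher by 1.13, with 0 called in adjacent-labelled liver and medians of 0.35 and 0.46. Receptor signalling genes were mostly not called, with 2 of 19 higher in each comparison and 0 lower, a share near the background, and medians of 0.38 and 0.25. They were Rgs2, which shortens G protein signals, higher by 2.22 in tumor, Rac2, a GTPase of moving leukocytes, higher by 1.42 in tumor and 1.23 in adjacent-labelled liver, and Arrb1, a receptor adaptor, by 1.13 in adjacent-labelled liver. Of 16 proteases and glycan enzymes that cut or hold chemokines, 2 were higher and 1 lower in tumor, and 3 higher and 1 lower in adjacent-labelled liver, with medians of 0.23 and 0.18. Dpp4, a protease that clips Cxcl10 and Cxcl12, was lower by -1.87 in tumor against wild-type liver and by -1.54 against adjacent-labelled liver, and was not called between adjacent-labelled and wild-type liver. Mmp12, a macrophage metalloprotease, was above wild-type liver by 3.28 in tumor and by 3.10 in adjacent-labelled liver.

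Among markers of cells that make or answer chemokines, lists of monocytes and macrophages, stellate cells and neutrophils had the most genes called higher. Of 10 monocyte and macrophage markers, 7 were called higher and 0 lower in each tissue against wild-type liver, with medians of 1.37 and 1.29, and the mean level of the list was 9.15 to 9.55 in tumor, 9.01 to 9.34 in adjacent-labelled liver and 7.56 to 7.61 in wild-type liver. Cd14, a coreceptor for bacterial products on monocytes, was higher by 4.59 in tumor and 3.81 in adjacent-labelled liver. Of 7 neutrophil markers, 3 were higher and 0 lower in each, with S100a8 up by 3.27 and 2.82 and list medians of 0.67 and 0.62, and the list had a mean level of 7.23 to 7.63, 7.14 to 7.41 and 6.16 to 6.22 in tumor, adjacent-labelled and wild-type liver. Adjacent-labelled piece 2, which held the highest value of its group for 34 of 49 members, was lowest for this list, at 7.14. Of 8 Kupffer cell markers, 1 was higher and 3 were lower in tumor, and 0 higher and 3 lower in adjacent-labelled liver, with mean levels of 8.48 to 8.60, 8.12 to 8.80 and 9.21 to 9.32 in tumor, adjacent-labelled and wild-type liver. Cd163, a haemoglobin scavenger receptor, accounted for much of that, at -4.87 in tumor and -4.98 in adjacent-labelled liver, where it lay below the detection threshold. The list medians were -0.28 and -0.03, and Cd5l, a secreted macrophage protein, was called higher in tumor, by 1.06. The part of these markers in the chemokine results was not tested.

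T cell markers had 0 of 9 called in either comparison, where 8.41% and 8.29% of all genes were called higher, with medians of 0.11 and 0.14 and mean levels of 6.07 to 6.13 in tumor, 6.03 to 6.31 in adjacent-labelled liver and 5.97 to 6.002 in wild-type liver. Cd3g, a chain of the T cell receptor complex named after its values were seen, was above wild-type liver by 0.67 in tumor (adjusted p = 0.000166) and 0.77 in adjacent-labelled liver (adjusted p = 6.73e-05), under the minimum size. Of 6 NK cell markers, 1 was called higher in each tissue and 0 lower, with medians of 0.10 and 0.14. They were Klrd1, a receptor chain, at 1.13 in tumor, and Gzmb, a cytotoxic protease, at 1.03 in adjacent-labelled liver. Of 6 B and plasma cell markers, 2 were higher in tumor, Jchain by 2.23 and Cd79b by 1.04, and 0 in adjacent-labelled liver, with medians of 0.77 and 0.24. Of 5 dendritic cell markers, 1, Itgax, was higher in each, by 1.85 and 1.69, with list medians of 0.12 and 0.05. Stellate cell and fibroblast markers had 5 of 10 higher and 1 lower in each tissue, led by Col1a1 at 2.66 in tumor and 3.15 in adjacent-labelled liver, with medians of 1.07 and 1.08. The lower marker in tumor was Lrat, at -1.11. Cholangiocyte markers had 2 of 7 higher in each, with medians of 0.41 and 0.21. Endothelial markers had 1 of 10 higher in tumor and 1 higher and 1 lower in adjacent-labelled liver, with medians of -0.20 and -0.28, and hepatocyte markers had 0 of 8 called in either. The hepatocyte levels lay near the highest value on the arrays, 14.51, where an increase has little room to show. Counts of 1 gene in lists this short cannot be told from the background shares.

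**Figure D5:**
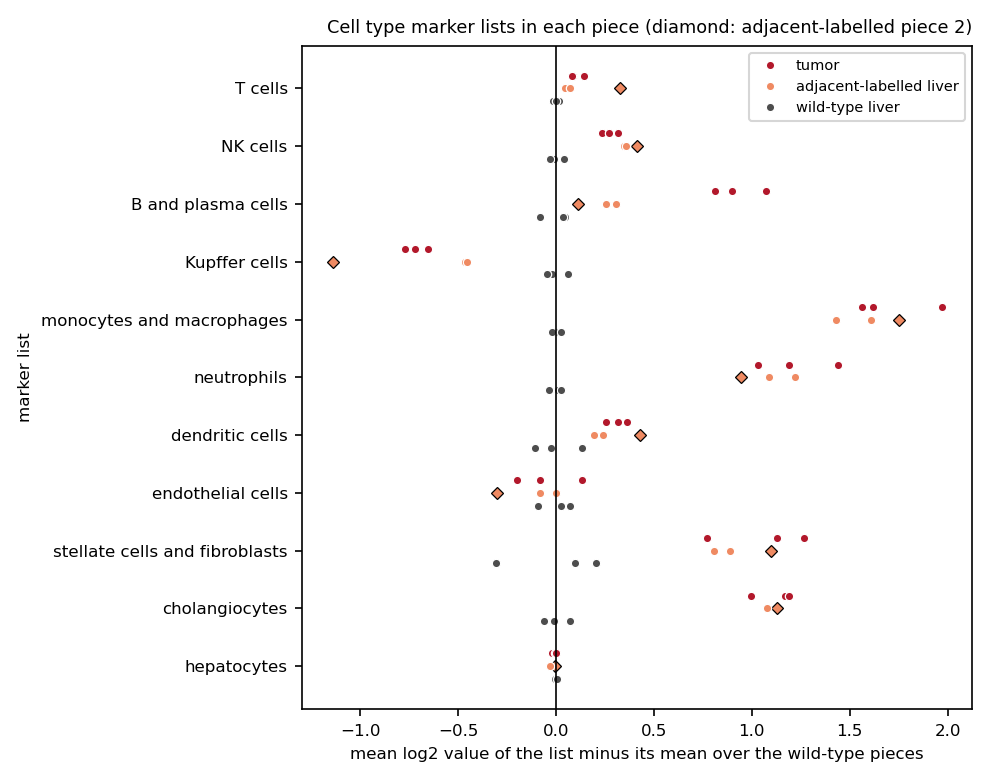
Mean log2 level of each cell type's marker list (rows) minus its mean over the wild-type pieces, with 1 point per piece and tumor above adjacent-labelled and wild-type liver in each row. Before that subtraction, monocyte and macrophage markers lie at 9.01 or above in all tumor and adjacent-labelled pieces and at 7.61 or below in wild-type liver, and the diamond, adjacent-labelled piece 2, is the lowest of its group for Kupffer cell markers.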

How the data were processed

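RNA from 9 liver pieces was hybridised to Affymetrix mouse arrays, 1 per piece. The deposited values are log2 expression per probe set, made by the authors with RMA; the submitters' processing notes name Affymetrix Expression Console, version 1.3.1.187. RMA corrects background, equalises array distributions by quantiles and summarises probes. No detection calls were used. Quantile normalization hides a change common to most genes, and the number of arrays limits the precision.

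Of 45101 probe sets, 34958 had 1 gene symbol in the platform annotation, 932 had several and 9211 had none. The probe set with 1 symbol and the highest mean stood for each gene. Differences were fitted with limma 3.58.1 in R 4.3.3 (lmFit and eBayes, 1 mean per group, all 9 arrays), with Benjamini-Hochberg adjustment over the 13888 genes tested, and 95% intervals are unadjusted. Every adjusted p comes from limma, and the step was tested on simulated data. Promoters and motif shares are from RefSeq's GRCm38.p6 table.

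Values per piece are given for every called member and for Ccl2, Ccl5, Cxcl12, Cx3cl1, Ccr2, Cx3cr1, Cxcr3, Cxcr4, Cxcr6 and Ackr3. Genes outside the family come from lists (6 of related pathways and 11 of cell type markers), up to 4 called per list and comparison. The members and lists were chosen with earlier results of these data known. Alternatives covered the threshold, the filter, the probe set per gene, array weights, further normalization, the spread model, the replicate block and each piece left out.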

Additional observations from a re-analysis of the deposited data

Results flagged for a closer look

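Cxcl3 differed between tumor and adjacent-labelled liver, since its excess over wild-type liver was 5.09 in tumor and 0.29 in adjacent-labelled liver, and the difference of these, tested as tumor minus adjacent-labelled liver, was 4.79 (adjusted p = 6.41e-08). Ccl20 lay below wild-type liver in all 3 tumor pieces (5.61, 5.68 and 5.71) and above it in all 3 adjacent-labelled pieces (6.07, 6.72 and 6.09), against 5.88, 5.88 and 5.83 in wild-type liver, and tumor minus adjacent-labelled liver was -0.63 (adjusted p = 0.00456). Its differences from wild-type liver were -0.20 in tumor (adjusted p = 0.258) and 0.44 in adjacent-labelled liver (adjusted p = 0.0227). Ccl25 also lay on opposite sides, at 6.61, 6.37 and 6.27 in tumor and 6.95, 6.95 and 7.05 in adjacent-labelled liver, against 6.92, 6.84 and 6.93 in wild-type liver, with tumor minus adjacent-labelled liver at -0.57 (adjusted p = 0.000283). Its excess in adjacent-labelled liver was only 0.09 (adjusted p = 0.368), and its second probe set lay below wild-type liver in both tissues, at -0.46 and -0.18. The share of all genes lying on opposite sides of wild-type liver in this way was not counted. Groups of 3 pieces are too small for a check of single outlying samples.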

How the results depend on the processing

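The counts of members called higher against wild-type liver, 14 in tumor and 13 in adjacent-labelled liver, stayed within 1.5-fold under each alternative run, and ranged over 12 to 14 and 12 to 13 when each piece was left out. Counts of lower members were small and moved more. In tumor against wild-type liver, 7 passed the adjusted p alone, 2 passed at a minimum difference of 0.5, 0 passed with the mean of a gene's probe sets, and 0 to 1 with a piece left out, the main count being 1. In adjacent-labelled against wild-type liver, 7 passed the adjusted p alone, 1 at a minimum of 0.5 and 1 with the most variable probe set, the main count being 0. For tumor against adjacent-labelled liver, higher members numbered 4 by adjusted p alone, 3 at 0.5 and 2 with the most variable probe set, against 1, and lower members 7, 4 and, with no brightness filter, 1, against 0. Ccr2 reversed with the most variable probe set, to 1.13 in tumor and 1.40 in adjacent-labelled liver, and with the mean of its probe sets, to 0.58 and 0.72. Of the single-member results, 1108 kept their side of the threshold, 18 lost the call, 4 gained it and 4 reversed. The 1108 include changes of direction where neither adjusted p was below 0.05. Cxcr4 between tumor and adjacent-labelled liver, for example, went from -0.18 to 0.47 without adjacent-labelled piece 2. A replicate block on the shared piece numbers left the counts at 14 and 1, 13 and 0, and 1 and 0. The numbers did not pair the pieces, since same-numbered deviations correlated at -0.11 to 0.14 over 9 pairs and 6 of 18 comparisons matched best with their own number. Leaving out adjacent-labelled piece 2 for Ackr3 and Cxcr6 was chosen after seeing the data.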
